A study of Mus musculus with 28 samples.

Results

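The expression profile of the vehicle-injected hippocampus was described from the 7 arrays of mice given phosphate-buffered saline (PBS), out of 28 arrays in the series. The arrays were chosen by their titles, and no measured value entered the choice. The animals were aged NSG mice from Jackson Labs, with a mean age of 14 months, that had received 6 intravenous injections, here of PBS. NSG mice carry mutations in Prkdc and Il2rg and lack mature T, B and NK lymphocytes, and animals of this strain were used throughout the series. The other 3 groups of 7 arrays, given human plasma, were not analysed here. Nothing in the labels ties an array to its own animal, so the spread given below is that between samples and may be in part technical. Values are log2 intensities, on which a difference of 1 is a doubling of signal.

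The hippocampus holds the dentate gyrus, whose granule neurons send mossy fibres to the pyramidal neurons of CA3, which in turn project to CA1, with the small CA2 field between them. It borders the choroid plexus and ependyma of the lateral ventricle, the thalamus below it, the cortex above it and the meninges. The choroid plexus is an epithelium that secretes cerebrospinal fluid and the thyroxine carrier transthyretin. Each array measured RNA of a whole dissected piece of tissue, in which fewer cells of a type and less RNA per cell cannot be told apart.

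Of 22256 genes with a symbol, 14847, or 66.7%, had a PBS mean above 4.93, the 95th percentile of the means of 1375 chemosensory receptor genes. These receptors for odours, pheromones and bitter tastes are made mainly in sensory epithelia, and their median of 2.70 served as a gauge of background signal. Probe sets differ in brightness, so the threshold is a coarse one, and the level of 1 gene is not set against that of another. Over the genes above it, the SD across the 7 arrays had a median of 0.113, with 10th and 90th percentiles of 0.0586 and 0.208. The highest and the lowest array differed by 0.319 in the median gene, a ratio of 1.25. With 7 arrays, the 95% interval of a true SD runs from 0.644 to 2.20 times the observed one. The array medians lay between 4.99 and 5.09, and the correlation of 2 arrays over all rows between 0.987 and 0.991.

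The SD depended on level, so each was read against the median SD of genes of like level, in 20 bins of equal gene number. A gene was called of high spread where its SD was at least 2 times that median. The rule took 797 genes, or 5.37% of those above the threshold. An array was called apart for a gene where its gap to the nearest other array exceeded Dixon's critical value for 7 samples, which chance alone exceeds in about 1 gene in 20. This held for 949 genes, or 6.39%, and replicate 6 was apart on the high side in 97 genes (0.653%) and replicate 1 on the low side in 148 (0.997%). The SD was above 0.5 in 80 genes and above 1 in 11. Of the 50 genes with the largest SD, 14 were on a list of choroid plexus genes, 12 on a list of interferon-stimulated genes and 3 on a list of thalamus genes.

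**Figure D1:**
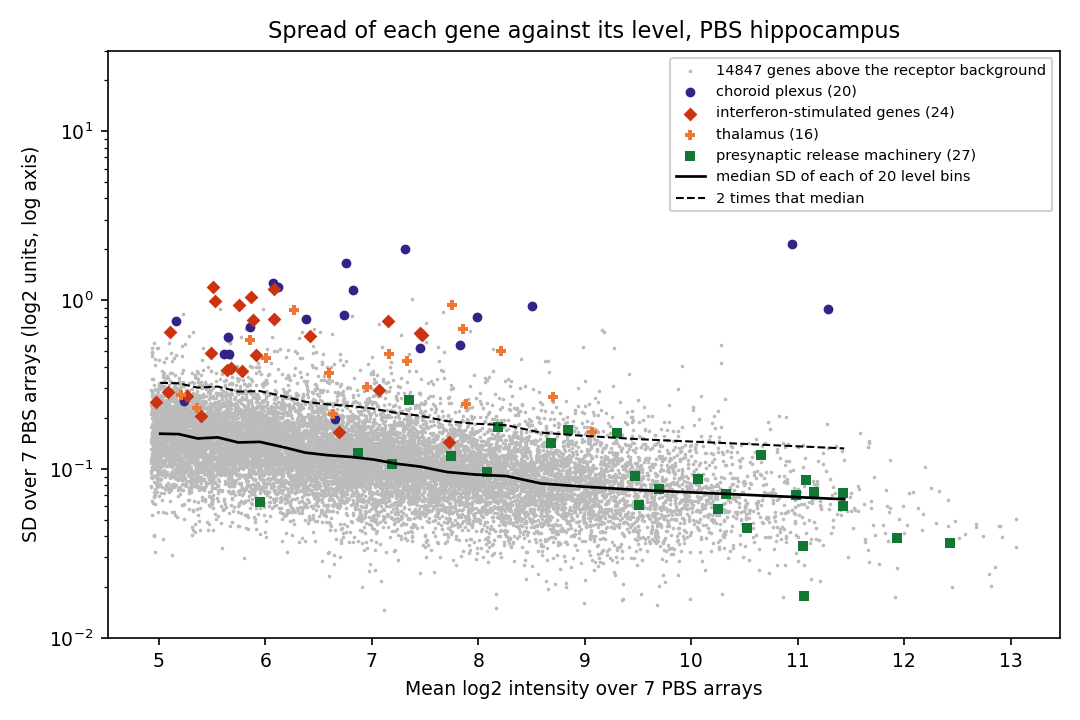
Each point is a gene above the receptor background, at its mean log2 intensity over the 7 PBS arrays (horizontal) and its SD over them (vertical, log axis). The black line joins the median SD of the 20 level bins and the dashed line is 2 times that median. Choroid plexus, interferon-stimulated and thalamus genes lie mostly above the dashed line, and genes of presynaptic release scatter around the solid line.

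Choroid plexus genes had the widest spread of the 53 lists described. Of 22 measured members, 20 were above the receptor background and 18 of these were of high spread, against 5.37% of all genes. Their median SD was 0.789, and the list mean was 5.97, 7.77, 6.09, 7.66, 7.90, 6.18 and 7.44 on PBS replicates 1 to 7. Replicates 2, 4, 5 and 7 lay high and replicates 1, 3 and 6 low, with an empty stretch between 6.18 and 7.44. The same 3 arrays were the lowest for 19 of the 20 members, an order found in 3.29% of all genes above the background. Replicate 5 was the highest for 14 of the 20, against 20.2% of all genes.

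Ttr, which encodes transthyretin, had the largest SD of any gene above the background, at 2.15. Its values were 8.15, 12.63, 9.12, 12.70, 12.79, 8.73 and 12.49 on replicates 1 to 7. The 4 high arrays lay close together and far above the 3 low ones. Kcnj13, an inwardly rectifying potassium channel of the plexus epithelium, had 4.63, 9.07, 5.20, 8.68, 9.22, 5.77 and 8.59 in the same order. On replicate 1 it was thus below the receptor background, and on replicate 5 it was far above. The coagulation factor gene F5 had 4.72, 8.16, 5.49, 8.32, 8.36, 4.88 and 7.37.

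Transport and secretion genes of the epithelium followed the same order. Slc4a5, a bicarbonate transporter, ran from 4.64 on replicate 1 to 7.40 on replicate 5, and Clic6, an intracellular chloride channel protein, from 5.40 to 8.13 on the same arrays. Enpp2, which encodes the lysophospholipase autotaxin, had 12.11, 11.91, 12.14 and 11.78 on replicates 2, 4, 5 and 7, against 10.29, 10.37 and 10.39 on replicates 1, 3 and 6. Receptor and peptidase genes had the same low arrays. Kl, the co-receptor klotho, ran from 7.25 to 9.46 with a median of 8.93. Ace, the angiotensin-converting enzyme, ran from 6.98 to 8.76 with a median of 8.38, and the prolactin receptor Prlr from 4.34 to 6.16 with a median of 5.51. The folate receptor Folr1 ran from 5.45 on replicate 3 to 7.22 on replicate 2.

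A few listed genes spread less than most of the list. Msx1, a homeobox transcription factor, had an SD of 0.197 and Wfdc2, a secreted protease inhibitor homologue, of 0.252. The 90th percentile of all genes above the background was 0.208, so these SDs were small only beside the other plexus genes. Wfdc2 was the member for which replicates 1, 3 and 6 were not the 3 lowest. Steap1 was below the receptor background on every array, at 3.15 to 3.64. Of the 15 genes with the largest SD above the background, 1500015O10Rik and Lbp also had their 3 lowest values on replicates 1, 3 and 6. 1500015O10Rik had 6.98, 7.11 and 7.32 on replicates 2, 4 and 5, against 4.73 and 4.97 on replicates 1 and 3. Lbp, which encodes the carrier of bacterial lipopolysaccharide, had 8.38, 8.18 and 8.44 there, against 6.08 and 6.42.

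**Figure D2:**
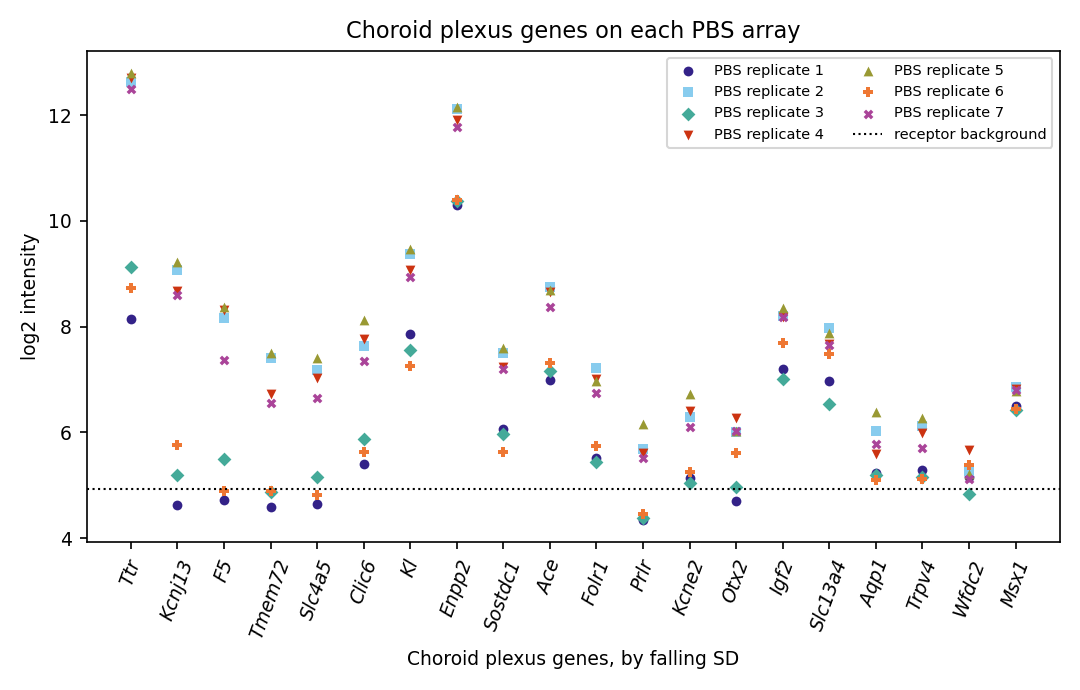
Log2 intensity (vertical) of the 20 choroid plexus genes above the receptor background on each of the 7 PBS arrays, ordered by falling SD. Replicates 1, 3 and 6 form the lower set and replicates 2, 4, 5 and 7 the upper set for genes from Ttr onward. Wfdc2 and Msx1, on the right, spread less than most of the list.

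Ependymal genes, which build the motile cilia of the ventricle wall, ordered the arrays somewhat differently. Of 9 measured genes, 7 were above the background and 4 of these were of high spread, against 5.37% of all genes. The list mean was highest on replicates 2 and 5, at 6.16 and 6.12, and lowest on replicates 1 and 3, at 5.56 and 5.68. The ciliary transcription factor gene Foxj1 had 6.47 and 6.54 on replicates 2 and 5, against 5.76 to 6.27 on the others. Ak7, an adenylate kinase of cilia, had 6.58 and 6.66 there, against 5.58 to 6.17. The 3 lowest arrays were replicates 1, 3 and 6 in 1 of the 7 genes, against 3.29% of all genes above the background. Over all 9 measured genes this order held for 3.

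Meningeal genes stood apart again in their order of arrays. Of 15 measured members, all above the background, 9 were of high spread, against 5.37% of all genes. The list mean was 7.39 and 7.37 on replicates 7 and 6, against 6.96 to 7.23 on the others. Ptgds, a prostaglandin synthase of the meninges and choroid plexus, had 11.07 on replicate 6 and 10.96 on replicate 7, against 9.60 to 10.23 elsewhere. Aldh1a2, which makes retinoic acid in meningeal fibroblasts, ran from 5.84 on replicate 3 to 6.83 on replicate 6. The proteoglycan gene Dcn had 7.96 on replicate 1, against 8.67 to 9.44 on the others. Igfbp2, which is also made by choroid plexus, ran from 6.13 to 7.84 and had its lowest values on replicates 3 and 1.

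The interferon-stimulated genes formed the second block of wide spread, and here 1 array carried it. Type I interferons bind the receptor pair Ifnar1 and Ifnar2, the kinases Jak1 and Tyk2 then activate a complex that holds Stat2 and Irf9, and it binds response elements in front of antiviral genes. The core of such an element, 2 copies of GAAA with any 2 bases between them, was searched on both strands of the RefSeq promoter windows of build GRCm38.p6, which span 250 bases before to 50 after each start. Of 24 list members above the background, 17 had a window and 10 of these, or 58.8%, held the letters, against 364 of 10881 genes above the background with a window, or 3.35%. Stretches of 60 bases before the start are shown for 5 members with a match, with the matched letters in capitals. They run from Ifit1, far higher on replicate 4, to Oas3, which was not. The windows of Irf7, Ifi44, Oasl2 and Irf9, also described next, held no match. Copies of TTTC are the same element on the other strand, and the 2 matches in Bst2 overlap.
Ifit1, chr19:34640779-34640838, plus strand: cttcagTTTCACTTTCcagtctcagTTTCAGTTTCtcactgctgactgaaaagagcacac
Bst2, chr8:71537562-71537621, minus strand: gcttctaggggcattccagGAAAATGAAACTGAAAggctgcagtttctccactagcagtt
Gbp2, chr3:142620579-142620638, plus strand: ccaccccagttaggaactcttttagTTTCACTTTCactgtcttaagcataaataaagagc
Rsad2, chr12:26456538-26456597, minus strand: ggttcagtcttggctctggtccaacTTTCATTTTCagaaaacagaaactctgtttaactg
Oas3, chr5:120777700-120777759, minus strand: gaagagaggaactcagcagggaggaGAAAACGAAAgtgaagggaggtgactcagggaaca

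Of 31 measured interferon-stimulated genes, 24 were above the background and 18 of these were of high spread, against 5.37% of all genes. Replicate 4 had the highest value for 30 of the 31 and for 23 of the 24, against 10.8% of all genes above the background, and it was apart on the high side for 19 of the 24, against 0.418%. Of the 24, 22 were above the background without replicate 4, so 2 passed only through it. These 2 are kept in the counts over the 24, in the list mean and in the set searched for promoter matches, which therefore lean on replicate 4. Over all 31 measured genes, without that filter, replicate 4 was apart on the high side for 21. The list mean was 7.26 on replicate 4 and 5.75 to 5.91 on the others, a ratio of 2.69 to their median. Without replicate 4, the median SD of the 24 genes was 0.159 in place of 0.550, and 2 of them were of high spread.

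The regulators of the response were among the genes that stood out. Irf7, the transcription factor that amplifies interferon production, had 8.67 on replicate 4, against 5.86, 5.70, 5.40, 5.47, 5.96 and 5.49 on replicates 1, 2, 3, 5, 6 and 7, a ratio of 8.41 to the median of these. The other 6 arrays lay close together, and replicate 4 was above all of them. Stat2 had 7.67, against 6.73 to 7.16, and Irf9 7.77, against 5.93 to 6.31. Usp18, a protease that removes Isg15 from proteins and dampens receptor signalling, had 7.85, against 5.15 to 5.60.

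Effector genes had the same high array. Ifi44 had 8.19 on replicate 4, against 4.73 to 5.23 on the others, where it lay near the receptor background. Ifit1, which binds viral RNA caps and holds 2 of the printed matches, had 8.21, against 5.28 to 5.67. Oasl2, a relative of the oligoadenylate synthetases, had 7.76, against 5.01 to 5.37. Bst2, which tethers budding virus to the cell surface, had 7.58, against 5.46 to 6.6, and its next highest array was replicate 2. Isg15 itself, the ubiquitin-like modifier, had a mean below the background, with 6.45 on replicate 4 and 4.45 to 4.85 on the others.

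Members with a match in their window did not all stand out on replicate 4. Gbp2, a guanylate-binding protein, had 6.44 on replicate 4, against 5.33 to 5.76, while Rsad2, the antiviral enzyme viperin, had 5.52, against 4.79 to 4.96. On those other arrays Rsad2 lay near the receptor background of 4.93. Oas3, an oligoadenylate synthetase, was the exception among the 24, with 5.12 on replicate 4 and 5.10 to 5.60 on the others. Ifit3 had 6.82 on replicate 4, against 6.33 to 6.79, so that this array was barely above the next. Of the 13 members with a window for which replicate 4 was apart on the high side, 6 held the letters, and so did 4 of the other 4 with a window.

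The upstream genes of the pathway differed less between arrays. Of 14 measured interferon ligands, receptors and kinases, 10 were above the background. Of the 10, 1 was of high spread, or 10%, against 5.37% of all genes. It was Ifna4, at 6.52 to 7.22. Replicate 4 was the highest for 4 of the 10, against 10.8% of all genes, and apart for none. The list mean was also highest on replicate 4, at 7.58, against 7.43 to 7.51 on the others. Ifnb1, the interferon beta gene, was below the background on all arrays at 3.0 to 3.62. The receptor genes had 8.51 on replicate 4 and 8.13 to 8.42 on the others for Ifnar1, and 7.61 and 7.44 to 7.73 for Ifnar2. Jak1 had an SD of 0.045.

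**Figure D3:**
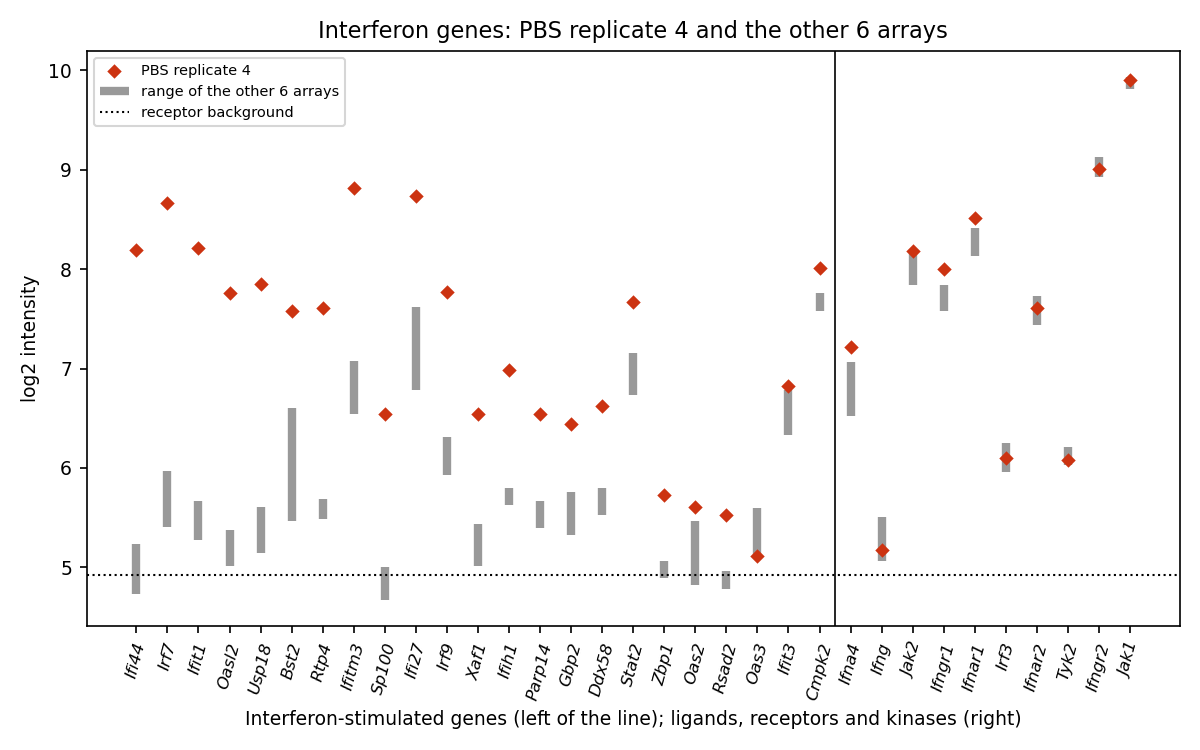
Log2 intensity (vertical) of 23 of the 24 interferon-stimulated genes above the receptor background (left of the line) and of 10 interferon ligands, receptors and kinases (right), each part ordered by falling SD. Diamonds are PBS replicate 4 and grey bars the range of the other 6 arrays. The diamonds lie clear of the bars for most genes on the left, with Oas3 and Ifit3 as exceptions, and close to or within the bars on the right.

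Some antigen presentation and glial genes were also highest on replicate 4. The list mean of 9 antigen presentation genes above the background was 6.93 on replicate 4 and 6.53 to 6.65 on the others. B2m, the light chain of MHC class I, had 10.82, against 9.67 to 9.86, and the peptide transporter Tap1 had 7.04, against 6.12 to 6.47. The MHC class II genes H2-Eb1 and H2-Ab1 had 5.37 and 4.92 on replicate 4, inside the ranges of the others. Among 20 microglial genes, all above the background, replicate 4 was highest in 10, against 10.8% of all genes. Of the 20, 2 were of high spread, or 10%, against 5.37% of all genes. The lysosomal protease gene Ctss had 10.03, against 9.30 to 9.59, whereas the fractalkine receptor Cx3cr1 had 7.82, against 7.8 to 7.89, and the purinergic receptor P2ry12 had 8.68, against 8.53 to 8.86. Among 9 complement genes above the background replicate 4 was highest in 6, against 10.8% of all genes. C4b had 8.65, against 7.90 to 8.47, and C1qa 7.75, against 7.41 to 7.58.

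Reactive glia genes had 7.42 as their list mean on replicate 4 and 6.81 to 7.05 on the others, over 9 genes above the background. Of the 9, 5 were of high spread, against 5.37% of all genes. Without replicate 4, 3 of the 9 were, against 5.62% of all genes. Lcn2, the acute-phase protein lipocalin 2, had 6.86 on replicate 4 and 5.80 on replicate 6, against 4.58 to 5.0 on the other 5. The oncostatin M receptor Osmr had 6.89, against 5.98 to 6.46, and the intermediate filament gene Vim 9.17, against 8.64 to 8.94. Serpina3n and Gfap, 2 astrocyte genes that rise in many injuries, had 10.30 and 9.88 on replicate 4, inside the ranges of the others at 10.01 to 10.46 and 9.73 to 10.09.

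Endothelial genes were highest on replicate 4 as well, and replicate 6 came next. Of 16 measured genes, 15 were above the background. Of these, 8 were of high spread, against 5.37% of all genes, and replicate 4 was highest in 12, against 10.8%. Without replicate 4, 4 of the 15 were of high spread, against 5.62% of all genes. The list mean was 7.81 on replicate 4 and 7.56 on replicate 6, against 7.21 to 7.39 on the others. Kdr, the main receptor of vascular endothelial growth factor, had 8.45 and 7.73 on replicates 4 and 6, against 6.69 to 7.17. Pecam1, an adhesion molecule of the vessel wall, had 7.90 and 7.61, against 7.02 to 7.23, and Cdh5, the cadherin of endothelial junctions, had 8.72 and 8.36, against 7.77 to 7.92. The tight junction gene Cldn5 had 7.23 and 6.90, against 6.30 to 6.67. Tie1 spread least, at 5.65 to 5.92. Whether vessel content takes part in the interferon or glial values of replicate 4 was not tested.

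Genes of the thalamus stood apart on replicate 6. Relay neurons of the thalamus use the vesicular glutamate transporter Slc17a6 where hippocampal pyramidal neurons mainly use Slc17a7. Of 17 measured genes, 16 were above the background and 13 of these were of high spread, against 5.37% of all genes. Replicate 6 was highest in 15, against 12.6% of all genes. It was apart on the high side in 9, against 0.653%. The list mean was 7.91 on replicate 6 and 6.81 to 7.05 on the others. Without replicate 6, the median SD of the 16 genes was 0.153 in place of 0.401 and 4 were of high spread.

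Tcf7l2, a transcription factor of thalamic and habenular neurons, had 8.24 on replicate 6, against 5.89, 6.01, 5.92, 5.82, 6.03 and 5.96 on replicates 1, 2, 3, 4, 5 and 7, a ratio of 4.92 to their median. Slc17a6 had 9.38, against 7.44 to 7.75. Synpo2, an actin-binding protein, had 7.14, against 5.54 to 5.88, and Ramp3, a receptor activity modifier, had 7.02, against 5.75 to 5.98. The nuclear receptor Rora had 8.43, against 7.72 to 7.84. Zic1, a transcription factor of the medial habenula and septum as well as thalamus, was high on 3 arrays, with 9.09, 8.65 and 8.42 on replicates 6, 2 and 5, against 6.84 to 7.19 on the others. Prkcd, a protein kinase C of relay neurons, overlapped more, with 9.0 on replicate 6 and 7.50 to 8.59 on the others, and Lhx9 had 6.85, within 6.33 to 6.87.

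Nicotinic receptor subunits known from the medial habenula, the small nucleus beside the thalamus, showed the same array. Chrna3 had 7.57 on replicate 6, against 5.10 to 5.38 on the others, a ratio of 5.06 to their median. Chrnb4 had 6.39, against 5.30 to 5.63, and Chrnb3, whose mean was below the background, had 5.59, against 4.18 to 4.69. The whole list of receptors for serotonin, dopamine, noradrenaline and acetylcholine, to which the nicotinic subunits belong, had 39 genes above the background. Of the 39, 9 were of high spread, or 23.1%, against 5.37% of all genes. Replicate 6 was highest in 10 of the 39, against 12.6%, and apart on the high side in 3, against 0.653%. Without replicate 6, 6 were of high spread, against 5.25% of all genes. The list mean ran from 6.43 to 6.57.

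The neurons that define the hippocampus were themselves not equal on all arrays. All 8 CA3 genes, 7 of 7 CA1 genes, 8 of 9 CA2 genes and 11 of 12 dentate genes were above the background. The dentate list mean was 8.02 on replicate 1, against 7.56 to 7.83 on the others, and replicate 1 was highest in 7 of the 11 genes, against 13.5% of all genes. Dsp, the junction protein desmoplakin, had 8.39 on replicate 1, against 7.19 to 7.84. Prox1, the transcription factor that specifies granule neurons, had 9.12, against 8.44 to 8.87. Lct, the lactase gene, had 7.72, against 6.76 to 7.13, and Trpc6, a cation channel, had 8.20, against 7.41 to 7.79. Calb1, the calcium buffer calbindin, did not share this, at 9.54 on replicate 1 and 9.61 to 9.67 on the others, and C1ql2 had 7.87, within 7.78 to 8.21.

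CA3 genes gave the order 7.59, 7.55, 7.46, 7.34, 7.47, 7.21 and 7.28 on replicates 1 to 7. Of the 8, 6 were of high spread, against 5.37% of all genes, and 3 were so without replicate 1. Replicates 6 and 7 were each the lowest in 3 of the 8 genes, against 18.3% and 22.5% of all genes. Iyd, an iodotyrosine deiodinase, ran from 5.63 on replicate 6 to 6.46 on replicate 1, the kainate receptor subunit Grik4 from 8.28 on replicate 7 to 8.71 on replicate 2, and Bok, a Bcl-2 family member, from 7.90 on replicate 7 to 8.46 on replicate 1. In CA2, replicate 6 was lowest in 5 of 8 genes, against 18.3% of all genes. The mineralocorticoid receptor Nr3c2 had 8.39 there, against 8.71 to 9.21, and Rgs14, a regulator of G protein signalling that restrains plasticity in CA2, had 7.49, against 7.75 to 8.11. CA1 list means differed less, at 8.16 to 8.41. Fibcd1 ran from 7.92 on replicate 6 to 8.58 on replicate 5, Wfs1, the gene of Wolfram syndrome, from 9.74 to 10.03, and Mpped1 had an SD of 0.049.

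Cortical genes had their highest list means on replicates 7 and 6, at 7.49 and 7.47, against 7.17 to 7.34 elsewhere. Of 10 above the background, 2 were of high spread, or 20%, against 5.37% of all genes. Replicate 6 thus held the highest thalamus mean, a high cortex mean and the lowest CA1, CA2 and CA3 means, and replicate 1 the highest CA1, CA3 and dentate means. The part that neighbouring tissue has in the other values of these arrays was not tested.

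**Figure D4:**
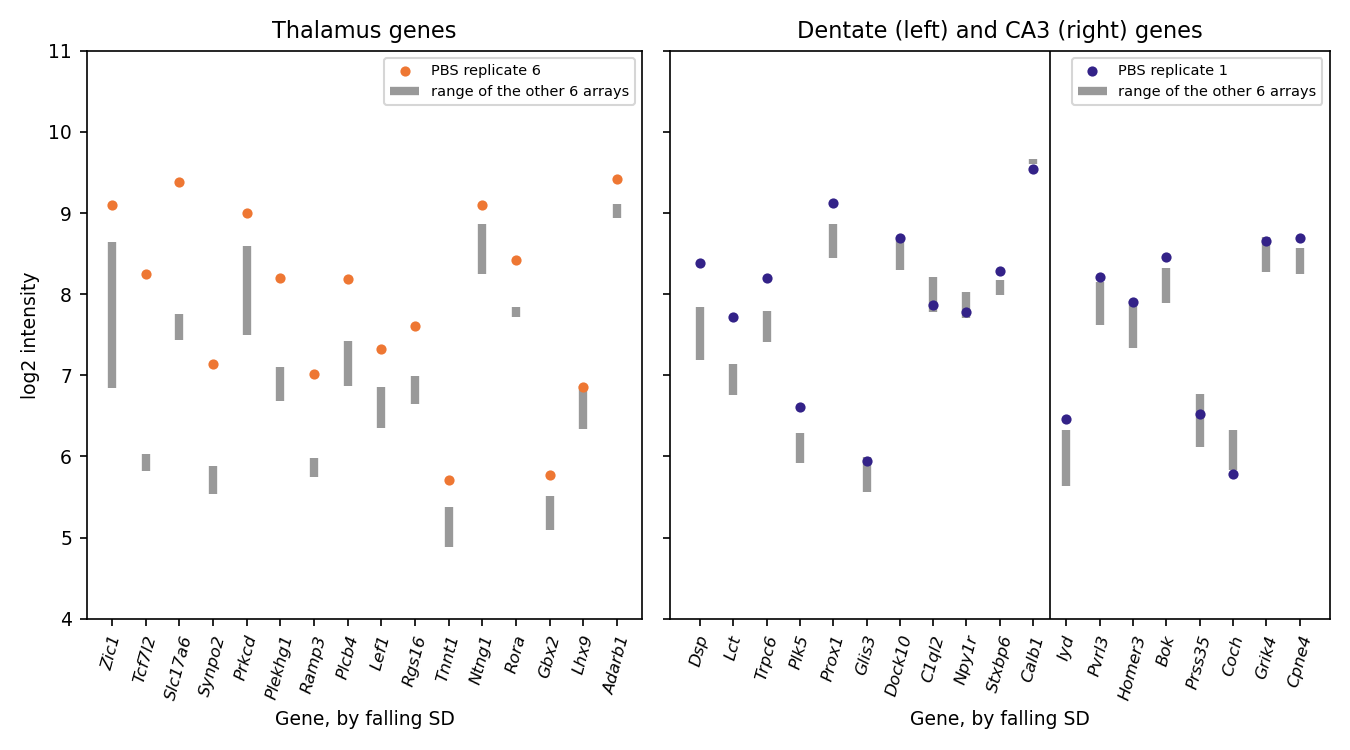
Log2 intensity (vertical) of thalamus genes (left panel) and of dentate and CA3 genes (right panel, parted by a line), each ordered by falling SD. Coloured points are PBS replicate 6 on the left and PBS replicate 1 on the right, and grey bars are the range of the other 6 arrays. Replicate 6 lies above the bar for 15 of 16 thalamus genes, and replicate 1 above it for 7 of 11 dentate and 4 of 8 CA3 genes.

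Replicate 1 was also the lowest array for several genes. Htr2c, a serotonin receptor found in choroid plexus and ventral hippocampus, had 7.50 on replicate 1, against 8.32 to 8.80 on the others. The GABA-A receptor subunit Gabra3 had 8.56, against 9.01 to 9.42, the NMDA receptor subunit Grin3a had 6.93, against 7.27 to 7.59, and the sodium channel Scn7a 5.25, against 5.61 to 6.30. Replicate 1 was lowest for 20.5% of all genes above the background, and for 236 of the 797 genes of high spread.

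Presynaptic release genes had the smallest median SD of the 53 lists, 0.0758, at levels where most genes spread little. Relative to genes of like level their median SD was 1.07, and that of oxidative phosphorylation genes was lower, at 0.828. All 27 were above the background, and the list mean stayed between 9.64 and 9.72. Syp, the vesicle protein synaptophysin, ran from 11.04 to 11.09 with an SD of 0.018. Snap25 and Syt1, a fusion protein and the calcium sensor of release, had SDs of 0.037 and 0.039 around means of 12.43 and 11.93. The glutamate transporter Slc17a7 ran from 11.08 to 11.28. The exceptions on this list were 3 genes of high spread, or 11.1%, against 5.37% of all genes. In addition, Vamp1, a vesicle protein of fast-firing neurons, had 8.57 on replicate 6, against 8.07 to 8.19. Postsynaptic genes had a median SD of 0.0838 over 19 genes, with Camk2a at 11.87 ± 0.059 and the scaffold Dlg4 at 10.12 ± 0.052 (SD, n = 7 each). All 16 ionotropic glutamate receptor genes were above the background. Gria1, an AMPA receptor subunit, had a mean of 11.20 ± 0.111 and Grin1, the obligatory NMDA receptor subunit, of 10.07 ± 0.056 (SD, n = 7 each).

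GABA-A receptor subunits were above the background in 12 of 19 cases. Gabra5, the subunit of extrasynaptic receptors in pyramidal neurons, ran from 11.03 to 11.38, and Gabrd, its counterpart in granule and relay neurons, had 6.99 on replicate 6, against 6.40 to 6.63. Among interneuron genes 18 of 19 were above the background. The peptide genes Sst and Npy had means of 10.33 ± 0.127 and 8.26 ± 0.149 (SD, n = 7 each). Of 84 measured potassium channel genes, 74 were above the background, with a list mean between 7.28 and 7.35. Of the 74, 5 were of high spread, or 6.76%, near the 5.37% of all genes. Kcnj13, described with the choroid plexus, was 1 of the 5.

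Astrocyte and oligodendrocyte lists had median SDs above those of genes of like level. All 18 astrocyte genes were above the background with a median SD of 0.0901, or 1.10 times that of genes of like level. Of these 18, 2 were of high spread, or 11.1%, against 5.37% of all genes. The glutamate transporter Slc1a2 ran from 10.23 to 10.36, and the water channel Aqp4 from 9.53 to 9.96. All 15 genes of myelinating oligodendrocytes were above the background and none was of high spread, but their median SD of 0.137 was 1.5 times that of genes of like level. Mbp, which encodes myelin basic protein, had the smallest SD of this list, at 9.08 ± 0.066 (SD, n = 7). The 10 genes of oligodendrocyte precursors had a median SD of 0.143, or 1.33 times that of genes of like level, and none of high spread. Csf1r, the growth factor receptor that microglia need to survive, had 8.84 on replicate 7, against 9.02 to 9.13 on the others.

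The list mean of immediate early genes, which respond to neuronal activity, was lowest on replicate 4, at 6.97, and highest on replicate 7, at 7.16. All 34 immediate early genes were above the background and 6 were of high spread, or 17.6%, against 5.37% of all genes. Npas4, a transcription factor induced by calcium entry, ran from 4.91 on replicate 4 to 6.18 on replicate 3 with an SD of 0.453. Egr1 had 7.61 on replicate 4, against 7.77 to 8.29, and Arc 9.09, against 9.36 to 9.70. Nr4a1 ran from 8.10 on replicate 4 to 8.93 on replicate 7, and Fos from 5.65 to 6.10. Replicate 4 was lowest for 13 of the 34, against 11.7% of all genes. The 17 clock genes had a median SD of 0.0896, with Arntl, which encodes the activator Bmal1, at 8.06 to 8.23 and Per1 at 8.95 to 9.15. Dbp, a clock output factor, had 8.89 on replicate 4, against 9.17 to 9.27. Among 14 glucocorticoid-responsive genes 3 were of high spread, or 21.4%, against 5.37% of all genes. Sgk1, a kinase induced by the hormone, ran from 7.96 to 8.58, and Cdkn1a, a cell cycle inhibitor also induced by p53, had 7.79 on replicate 4, against 7.02 to 7.38. Sult1a1, a sulfotransferase, had 7.26 there, against 6.51 to 6.81. The receptor Nr3c1 had an SD of 0.064.

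Markers of new neurons were low. Dcx, a microtubule protein of immature neurons, ran from 5.53 to 6.21. The proliferation marker Mki67 ran from 4.39 to 4.74 and the progenitor factor Eomes from 3.54 to 4.27, both below the receptor background on all arrays.

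Lymphocyte, neutrophil and monocyte genes were mostly near or below the background. Of 11 listed red blood cell genes 4 were measured, none of them a haemoglobin gene, and 1 was above the background. The amount of blood in the samples was therefore not gauged. Of 20 genes of T, B and NK cells, 10 were above it with a median level of 5.10, against 66.7% of all genes. The T cell receptor component Cd3e ran from 4.02 to 4.53 and the B cell receptor component Cd79a from 3.92 to 4.47. Ighm, the heavy chain of IgM, had 10 rows in the table. The brightest had a mean of 6.81 ± 0.211 (SD, n = 7), and the dimmest of 1.79. Of 14 neutrophil and monocyte genes, 6 were above the background. The monocyte receptor Ccr2 ran from 3.23 to 3.42, and Ly6c2 had 7.77 on replicate 4, against 6.46 to 7.10 on the others. Il2rg, mutated in this strain, had a mean of 4.64 ± 0.139, below the background, and Prkdc, in which the strain carries a point mutation, had 6.45 ± 0.170 (SD, n = 7 each). Neither probe set is known here to lie within the altered part, so these levels do not check the strain. The Y-linked genes Ddx3y, Kdm5d, Uty and Eif2s3y were above the background on all 7 arrays, with Ddx3y at 8.60 to 8.71, and Xist, which female cells express, was below it on all 7, at 4.52 to 4.81.

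Protein-coding housekeeping families had shares of high-spread genes on either side of the 5.37% of all genes. They were 2.53% of 79 oxidative phosphorylation genes, 2.86% of 35 proteasome genes, 4.44% of 45 ribosomal protein genes and 8.33% of 12 tubulin genes. The 79 oxidative phosphorylation genes above the background had a median SD of 0.0766, and 2 of them were of high spread. Ndufb6, a subunit of complex I, had the smallest SD of the 3994 genes with a mean of at least 8, at 0.015. Hnrnpul1, a nuclear ribonucleoprotein, Dync1li1, a subunit of the dynein motor, and Gnb1, a G protein beta subunit, were also among the 10 genes with the smallest SD at that level. Ribosomal protein genes had a median SD of 0.107 over 45 genes and proteasome genes of 0.0935 over 35. Small nucleolar RNAs, which guide the modification of ribosomal RNA, had a larger share. Of 51 above the background, 22 were of high spread, or 43.1%, against 5.37% of all genes. Replicate 1 was highest in 29, against 13.5% of all genes, and replicate 4 in a further 14, against 10.8%. Without replicate 1, 14 of the 51 were of high spread. Snord17 had 8.62 on replicate 1, against 7.61 to 8.23, and Snord83b 7.69, against 6.6 to 7.08. Snora35, a guide hosted in the Htr2c gene, ran the other way, with 5.50 on replicate 1 and 5.84 to 6.97 on the others. Snord116 had an SD of 0.060 on 2 rows with equal values.

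**Figure D5:**
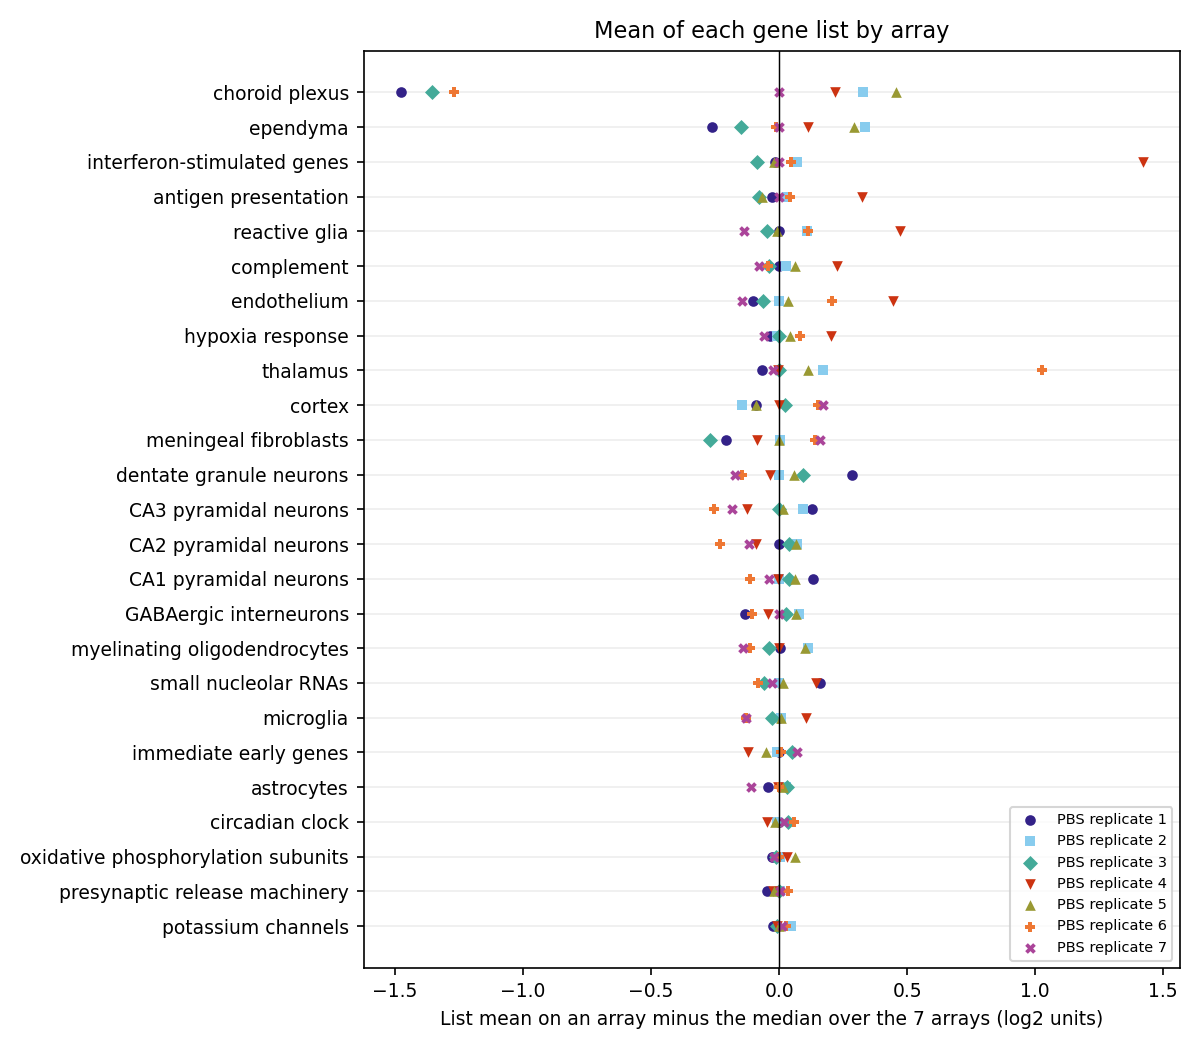
Mean of each gene list shown over its members above the receptor background, on each PBS array, minus the median of the 7 arrays (horizontal, log2 units). Each row is a list and each symbol an array. Choroid plexus genes split the arrays, interferon-stimulated genes have replicate 4 at 1.42 and thalamus genes have replicate 6 at 1.03, and the arrays of the lowest rows lie almost on top of each other.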

How the data were processed

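RNA of hippocampi was measured on Affymetrix whole-transcript arrays with biotin label, per the labels. The deposited values are log2 intensities made by the authors with RMA (background correction, quantile normalization and summary of probes), per the submitters' processing notes, and its version is not given in the sources used here. Because all arrays were normalized together to one distribution, differences in total RNA are not kept. The authors' deposited PBS means, on the log2 scale, and their other deposited column, the SD, equalled the recomputed ones within 1e-08. Of 41345 rows, 23410 had a symbol. For 898 genes with several rows the row with the highest mean was kept, which gave 22256 genes.

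Levels, SDs and the array order were computed with Python 3.11.15, numpy 2.4.6, pandas 2.3.3 and scipy 1.17.1, and the rules were tested on simulated data. No groups were compared and no test was run. The number of arrays limits the precision. Genes named were the 15 with the largest SD, the 10 with the smallest SD at a mean of at least 8, and for each list a fixed set with the 3 widest members and the steadiest. Other named genes were chosen after their values were seen. The members and the 53 lists were chosen with earlier results of these data known. Promoter windows came from RefSeq, build GRCm38.p6. The genome build of the array annotation is not given in the sources used here. A few list members are counted in their lists but not reported singly here.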

Additional observations from a re-analysis of the deposited data

Results flagged for a closer look

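Among the 145 genes named and the 53 lists, 33 genes and 5 list means had 1 array whose gap to the next was large for the range of the 7. Chance gives such a gap in about 1 group in 20, and several genes were named because of it, so the numbers do not measure how often it occurs.

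Replicate 4 stood apart as the highest array for the list means of interferon-stimulated genes (7.26), reactive glia (7.42) and antigen presentation (6.93). Its values for single interferon-stimulated genes were 8.67 for Irf7, 7.77 for Irf9, 8.21 for Ifit1 and 8.19 for Ifi44. They were 7.76 for Oasl2, 7.85 for Usp18, 6.44 for Gbp2, 5.52 for Rsad2 and 6.45 for Isg15. The same array was highest for B2m (10.82), Tap1 (7.04), Ctss (10.03), Sult1a1 (7.26), Lgals3bp (9.47), Adm (5.96) and Col4a1 (6.82). It was apart as the lowest array for Dbp, at 8.89, and for Cd3e, at 4.02, a gene below the receptor background. Ifit3 stood apart on replicate 2, which was lowest at 6.33.

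Replicate 6 stood apart as the highest array for the thalamus list mean (7.91). Its single values were 8.24 for Tcf7l2, 9.38 for Slc17a6, 7.14 for Synpo2, 7.02 for Ramp3 and 8.43 for Rora. The nicotinic subunits had 7.57 for Chrna3, 6.39 for Chrnb4 and 5.59 for Chrnb3. Vamp1 (8.57), Gabrd (6.99) and H2-Ab1 (5.49) were also highest on this array.

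Replicate 1 was the highest for Lct, at 7.72, and the lowest for Htr2c, at 7.50. Replicate 7 was the lowest for Csf1r, at 8.84, and had the highest chemosensory receptor mean, 5.69. At least 3 of the genes in that mean passed the background only through this array.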

How the results depend on the processing

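Of 60 alternatives that kept all 7 arrays, 55 left their result within the spread or within 1.5 times. The median SD of 0.113 became 0.1227 with arrays centred on their medians, 0.102 with the 99th percentile of the receptors as threshold and 0.09625 as a scaled median absolute deviation. The count of 797 genes of high spread became 2209 at 1.5 times the bin median and 199 at 3 times. Leaving out each array in turn gave 14758 to 14904 genes above the background, 780 to 914 of high spread, 837 to 959 with 1 array apart and a median SD of 0.1093 to 0.1138.

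The range of a list mean over arrays was 0.1588 to 1.527 for interferon-stimulated genes, with the low end without replicate 4, and 0.2363 to 1.091 for thalamus genes, with the low end without replicate 6. It was 0.3513 to 0.5924 for endothelium (lowest without replicate 4), 0.2685 to 0.4569 for dentate genes (lowest without replicate 1), 0.05007 to 0.07923 for presynaptic genes (lowest without replicate 6), 1.807 to 1.936 for choroid plexus and 0.227 to 0.2448 for small nucleolar RNAs. In an alternative chosen after seeing the data, members of high spread numbered 2 of 24 for interferon-stimulated genes and 4 of 15 for endothelium without replicate 4, 4 of 16 for thalamus without replicate 6, and 18 of 20 for choroid plexus without replicate 5. No paired analysis was possible because only 1 group was described and no test was made. Dim probe sets near the receptor background have little room to show low values.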

Other observations

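Genes that respond to low oxygen had a list mean of 7.49 on replicate 4 and 7.23 to 7.37 on the others, over 10 genes above the background. Vegfa, which encodes the growth factor bound by Kdr, had 8.22 on replicate 4 and 8.05 on replicate 6, against 7.32 to 7.73. The peptide hormone gene Adm had 5.96 on replicate 4, against 4.28 to 4.89, with a mean below the background. Slc2a1, the glucose transporter of the blood-brain barrier, had 10.47, against 9.78 to 10.11, but its 2 dimmer rows were highest on replicate 6. Col4a1, a collagen of vessel basement membranes, had 6.82, against 6.03 to 6.32. Lgals3bp, a secreted glycoprotein, had 9.47 on replicate 4, against 7.03 to 7.81, and its dimmer row was highest on the same array. Whether these genes and the endothelial ones share a source was not tested.

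The 69 chemosensory receptor genes above the background are the top of the receptors by construction. Without replicate 7, 66 of all 1375 receptors passed, so at least 3 of the 69 entered only through it. Their list mean was 5.69 on replicate 7, against 5.44 to 5.53 on the others. Replicate 7 also had the highest list mean of 36 keratin and keratin-associated genes, 5.98, against 5.73 to 5.86. It had the lowest list mean of 18 clustered protocadherins, 6.18, against 6.33 to 6.50.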
